A study of Mus musculus with 6 samples.

Results

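The enzymes that write, copy and remove cytosine methylation were followed in fetal mouse ovaries with and without Dmrt1, a DM domain transcription factor of germ cells and testis. The group has 9 genes, chosen by name: Dnmt1, Dnmt3a, Dnmt3b, Dnmt3l, Uhrf1, Tet1, Tet2, Tet3 and Tdg. Their values were read from every probe set whose annotation names exactly 1 of them, which gave 20 of the 45101 probe sets on the array, for 8 of the 9 genes. Tdg has 3 probe sets, and each also names other genes, so Tdg has no value here. Ovaries were dissected at E15.5 (days of embryonic development), from embryos labelled Dmrt1 knockout, which the design text calls a conditional removal, on 3 arrays, and from wild type (WT) on 3 arrays. The labels state neither the strain, the Cre line or the cells in which it acts, nor whether a replicate is 1 animal or a pool, so p-values here cover the array-to-array spread within a group, and that spread may be technical.

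DNA methylation in mammals is laid down by the de novo methyltransferases, copied to the new strand after replication by the maintenance enzyme, and lost either by dilution or by oxidation. Dnmt3a and Dnmt3b are the de novo enzymes, and Dnmt3l is their partner without catalytic activity. Dnmt1 is the maintenance enzyme, and Uhrf1 brings it to half-methylated sites at the replication fork. The TET enzymes oxidise methylated cytosine, and Tdg, a glycosylase, cuts out the later oxidation products. Germ cells of the fetal ovary have erased most of their methylation, and oocytes regain it only when they grow after birth.

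No direct check of the genotype came from these arrays. The Dmrt1 probe set read between 5.97 and 13.02 intensity units on all 6 arrays and did not reach the level required for testing. Knockout replicate 1 lacked signal for Xist, the RNA that silences an X chromosome in female cells: its 3 probe sets averaged log2 1.81 there, while the other knockout arrays averaged 9.75 to 9.85 and wild type 10.7 to 10.9. The counts of members and the values the results turn on are therefore also given without that array. Leaving it out did not make the groups alike in Xist. At its brightest probe set the difference was still -1.31 log2 units, past the adjusted threshold by limma, and the cause was not tested. Pairs of arrays correlated at 0.985 to 0.993 (log2 values) if they shared a group and at 0.973 to 0.980 otherwise. Markers of the ovary were present: 9 of 9 pregranulosa and 8 of 11 germ cell markers had a tested probe set. Of 6 Sertoli markers, Amh, Dhh and Dmrt1 itself were under the tested level, while Sox9 (12.1 to 20.5), Fgf9 (58.9 to 100.5) and Cldn11 (764 to 1182 intensity units over all arrays) were tested and did not pass.

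Sequences upstream of 3 members are shown because their results differ. The lowest log2 differences, knockout minus wild type, were at probe sets of Tet2 (-1.09 and -0.79) and Dnmt3a (-0.82 and -0.54). Dnmt3l was far under the tested level. Each is the 250 bases before the gene's most upstream annotated start, from RefSeq on GRCm38.p6, 5′ to 3′ on the gene's strand, with each CG, the letters the methyltransferases act on, in capitals. The Dnmt3a window lies at chr12:3806730-3806979 (plus strand), that of Tet2 at chr3:133544391-133544640 (minus strand) and that of Dnmt3l at chr10:78042037-78042286 (plus strand).
Dnmt3a: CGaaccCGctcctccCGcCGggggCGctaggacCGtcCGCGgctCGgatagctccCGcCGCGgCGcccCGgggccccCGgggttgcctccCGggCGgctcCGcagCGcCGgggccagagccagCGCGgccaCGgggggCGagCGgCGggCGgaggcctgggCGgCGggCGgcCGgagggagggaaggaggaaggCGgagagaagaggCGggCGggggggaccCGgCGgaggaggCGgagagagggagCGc
Tet2: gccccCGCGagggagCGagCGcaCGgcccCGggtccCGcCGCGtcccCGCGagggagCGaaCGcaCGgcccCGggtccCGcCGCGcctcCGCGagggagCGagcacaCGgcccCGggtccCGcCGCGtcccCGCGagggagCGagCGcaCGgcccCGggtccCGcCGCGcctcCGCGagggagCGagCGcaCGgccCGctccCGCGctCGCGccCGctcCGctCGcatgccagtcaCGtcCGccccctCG
Dnmt3l: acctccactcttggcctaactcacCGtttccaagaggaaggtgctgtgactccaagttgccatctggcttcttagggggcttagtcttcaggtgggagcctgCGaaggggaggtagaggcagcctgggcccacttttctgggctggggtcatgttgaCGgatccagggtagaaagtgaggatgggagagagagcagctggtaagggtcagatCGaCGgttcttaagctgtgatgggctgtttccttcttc

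These windows hold 38 CG pairs in Dnmt3a, 51 in Tet2 and 5 in Dnmt3l. Over the full 300-base windows, which run 50 bases past the start, the counts were 46, 57 and 6, against a median of 7 over 32851 windows of all genes. At least as many as Tet2 were found in 0.152% of all windows, and at least as many as Dnmt3a in 1.65%. The other annotated starts of Dnmt3a had 47 and 18 CG pairs and those of Dnmt3l 4 and 3, so the count differs between starts of 1 gene. The letters ACANTGT, the core of the site that DM domain proteins bind and its own reverse complement, were in 0 of the 16 windows of the 9 members and in 7.54% of all windows, which says only that these letters are not in these windows. The arrays measure no methylation and no binding at any of these sequences.

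**Figure D1:**
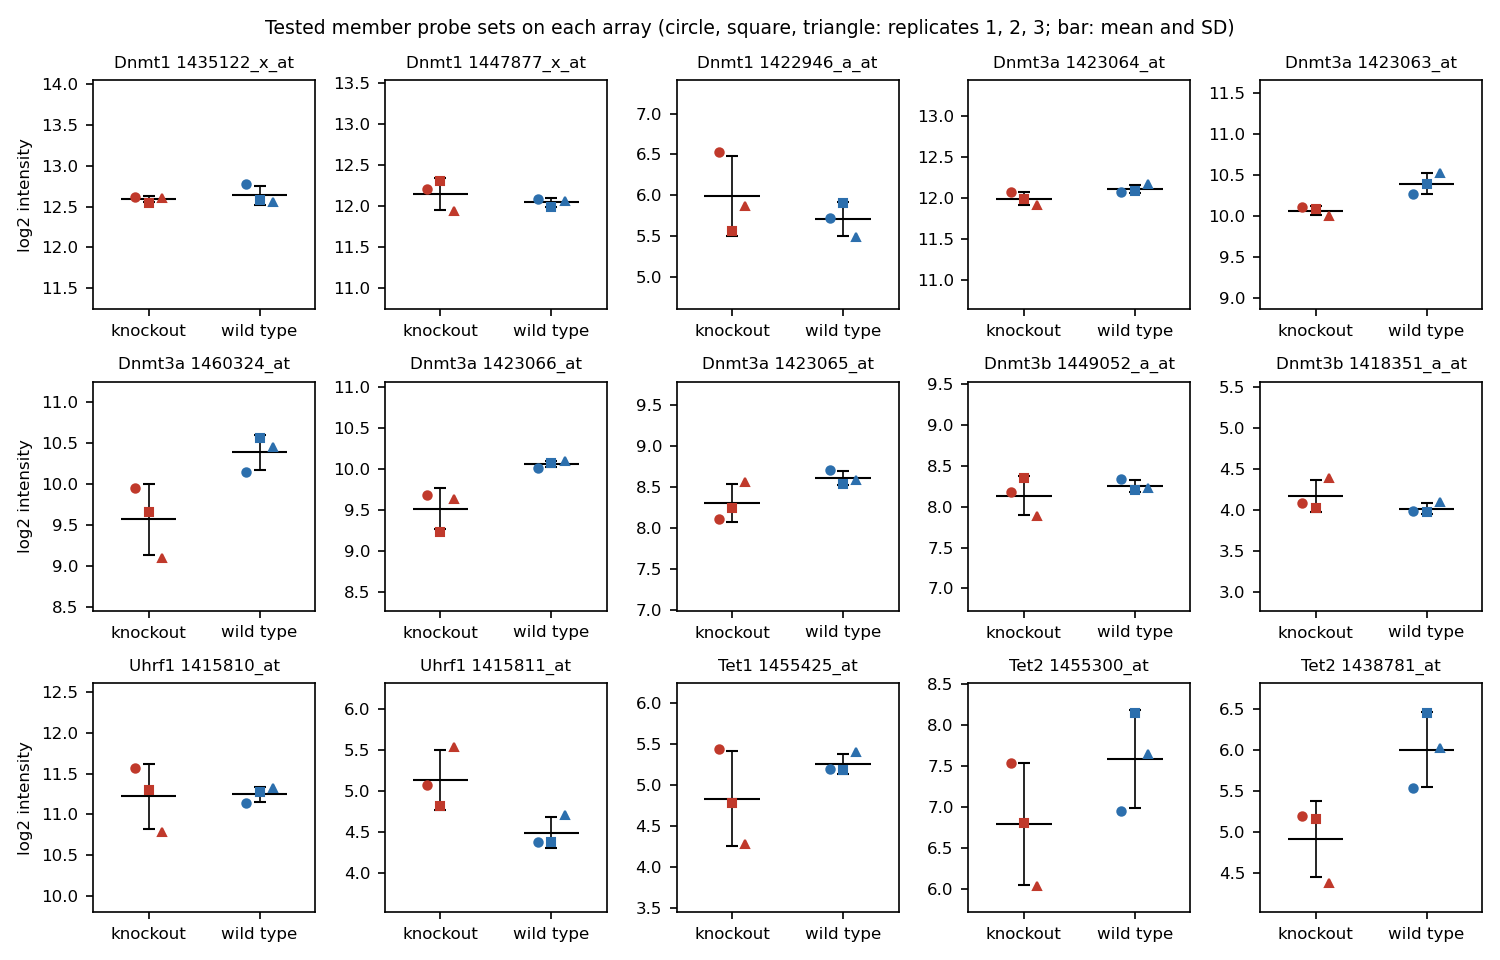
Log2 intensity (vertical axes, all of the same length in log2 units) of the 15 tested probe sets in 3 knockout and 3 wild-type arrays, with mean and SD. The 3 knockout points lie below all wild-type points in 4 of the 5 Dnmt3a panels and in the Tet2 panel of 1438781_at, and above them in the panel of Uhrf1 1415811_at.

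Of the 20 probe sets, 15 were tested, that is, 3 or more of the 6 arrays reached log2 4, an intensity of 16. These belong to 6 genes: Dnmt1, Dnmt3a, Dnmt3b, Uhrf1, Tet1 and Tet2. By limma with Benjamini-Hochberg adjustment over all 22040 tested probe sets, 1 of the 15 passed the threshold of 0.05, a Dnmt3a probe set that fell. That is 6.67% of the members' probe sets, beside 6.60% of all tested probe sets (1455, with 321 or 1.46% higher and 1134 or 5.15% lower in knockout), so the share called is near the background. An unadjusted p under 0.05 was found for 5 of the 15, beside 20.7% of all. Knockout arrays lay wholly below wild-type arrays for 5 of the 15, beside 15.2% of all, and wholly above for 1, beside 11.2% of all. When each gene was read through its brightest probe set, 0 of 6 passed by limma and 0 had an unadjusted p under 0.05, beside 3.55% (1.28% higher and 2.27% lower) and 17.4% of 11897 genes. Without knockout replicate 1 the limma adjusted threshold was passed by 1 member probe set, beside 1029 probe sets in all. Of the 6 genes 0 passed it, beside 61 higher and 157 lower of 11814 genes. In that fit 2 of the 6 had an unadjusted p under 0.05, beside 1757 of the 11814.

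Dnmt3a, a de novo methyltransferase, had a negative difference at all 5 of its probe sets, which carry the same source accession in the annotation and are not independent replicates. The transcript forms each one reads were not analysed here. Probe set 1460324_at read 987, 809 and 549 intensity units in knockout (replicates 1, 2 and 3, as in all such series of values here) and 1137, 1517 and 1397 in wild type. The groups did not overlap, and knockout replicate 3 was the lowest array. This probe set fell by 0.82 ± 0.20 log2 units (SE, n = 3 a group, adjusted p = 0.0420 by limma), a knockout level of 0.567 times wild type (95% interval 0.413 to 0.777).

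At 1423066_at the knockout arrays read 827, 604 and 796 and the wild-type arrays 1037, 1083 and 1096, again with no overlap. The difference was -0.54 ± 0.14 (limma adjusted p = 0.0501), just over the threshold, and -0.63 (0.0531) without knockout replicate 1. Probe set 1423063_at read 1108, 1088 and 1025 in knockout and 1232, 1348 and 1469 in wild type, also apart, with a difference of -0.33 ± 0.11 (limma adjusted p = 0.130, and 0.196 without knockout replicate 1). All 3 of these probe sets thus had their highest knockout array below their lowest wild-type array.

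The 2 other Dnmt3a probe sets differed less. The brightest, 1423064_at, read 4321, 4085 and 3862 in knockout and 4323, 4355 and 4622 in wild type, so that the highest knockout and lowest wild-type arrays nearly touched, with a difference of -0.12 ± 0.08 (limma adjusted p = 0.463) and a 95% interval of -0.30 to 0.06. The dimmest, 1423065_at, read 276, 301 and 377 in knockout and 416, 370 and 383 in wild type, with overlap, and differed by -0.30 ± 0.16 (limma adjusted p = 0.321). The size of the Dnmt3a difference therefore ranged from -0.12 to -0.82 by probe set. The interval of the brightest, which ends at -0.298, does not reach the point value of any other Dnmt3a probe set. It stops just short of 1423065_at (-0.302).

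Averaged over its 5 probe sets before the fit, Dnmt3a read log2 9.99, 9.84 and 9.84 on the knockout arrays and 10.2, 10.3 and 10.4 on the wild-type arrays. That difference was -0.42 ± 0.10 (SE, n = 3 a group, adjusted p = 0.0553 by limma), where 2.87% of 11897 genes passed in the same fit, and -0.47 (0.0848) without knockout replicate 1. The call of 1460324_at ended without knockout replicate 2 (limma adjusted p = 0.0607) or 3 (0.0676) and without wild-type replicate 1 (0.0815), 2 (0.178) or 3 (0.152), while without knockout replicate 1 it was -1.01 (0.0198). It also ended under a filter at log2 5 (0.0501) and with eBayes without its intensity trend (0.0797).

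**Figure D2:**
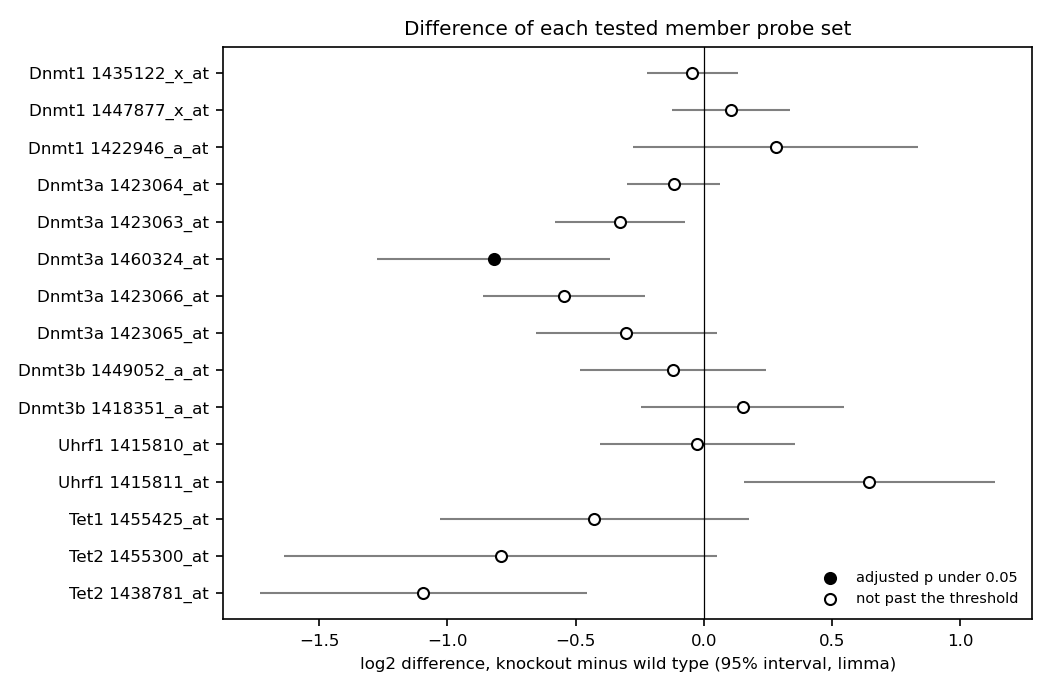
Log2 difference, knockout minus wild type, of each tested probe set (points) with its 95% interval from limma (lines). The filled point, Dnmt3a 1460324_at at -0.82, is the 1 past the adjusted threshold. Points of Dnmt1 and Dnmt3b lie near 0, on both sides of it.

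Dnmt3b, the other de novo methyltransferase, showed no difference beyond the spread of the arrays. Its brighter probe set, 1449052_a_at, read 288, 327 and 236 in knockout and 323, 295 and 298 in wild type, with overlap. The difference was -0.12 ± 0.16 (SE, n = 3 a group, adjusted p = 0.732 by limma), and its 95% interval, -0.48 to 0.24, leaves room for a change of either sign. The dim probe set 1418351_a_at read 16.3 to 20.9 in knockout against 15.6 to 17.03 in wild type, with 2 of 3 wild-type arrays under the tested level, and differed by 0.15 ± 0.18 (0.684).

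Dnmt3l had 1 probe set, which read 4.35, 4.64 and 4.44 in knockout and 3.98, 5.14 and 4.2 in wild type. All 6 arrays lay well under the intensity of 16 required for testing. No difference could be measured for this partner of the de novo enzymes.

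Maintenance methylation is carried by Dnmt1 and Uhrf1, and neither passed the test. Dnmt1, at its brightest probe set 1435122_x_at, read 6294, 5971 and 6246 in knockout and 6997, 6121 and 6014 in wild type. The difference of -0.04 ± 0.08 (SE, n = 3 a group, adjusted p = 0.806 by limma) had a 95% interval of -0.22 to 0.13, the narrowest among the members. Its second bright probe set, 1447877_x_at, read 4723, 5073 and 3915 against 4363, 4054 and 4258 and differed by 0.11 ± 0.10 (0.620). Both have the _x_at suffix, given to probe sets that may also match other transcripts. At the dim 1422946_a_at knockout replicate 1 read 92.1 and the other 5 arrays read 45.1 to 59.9, with a difference of 0.28 ± 0.25 (0.583), or 0.01 without that array.

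Uhrf1 gave different pictures at its 2 probe sets. At the bright 1415810_at the knockout arrays read 3046, 2524 and 1771, on both sides of the wild-type arrays at 2266, 2480 and 2553. The difference was -0.03 ± 0.17 (SE, n = 3 a group, adjusted p = 0.956 by limma), and it was -0.20 without knockout replicate 1 and 0.19 without knockout replicate 3. At 1415811_at the knockout arrays read 33.5, 28.1 and 46.2, all above the wild-type arrays at 20.8, 20.8 and 26.1, with a difference of 0.65 ± 0.22 (limma adjusted p = 0.124, and 0.188 without knockout replicate 1). Both probe sets carry the same source accession in the annotation, and averaged over both Uhrf1 differed by 0.31 ± 0.13 (0.229), a positive sign.

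Tet2, an oxidase of methylated cytosine, had the largest negative difference among the members, at 1 of its 2 probe sets, and also a wide spread. Probe set 1438781_at read 36.7, 35.6 and 20.7 in knockout and 46.3, 87.1 and 65.2 in wild type. The groups did not overlap, and the level in knockout was 0.469 times that in wild type (95% interval 0.301 to 0.729). The log2 difference was -1.09 ± 0.29 (SE, n = 3 a group) with a limma adjusted p of 0.0501, which ranged from 0.0421 to 0.203 over 15 other settings and was under 0.05 in 4 of them. Without knockout replicate 1 it was -1.24 (0.0622).

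The brighter Tet2 probe set, 1455300_at, read 186, 112 and 65.9 in knockout and 124, 285 and 201 in wild type. Here knockout replicate 1 lay above wild-type replicate 1, and the difference of -0.79 ± 0.38 (SE, n = 3 a group) did not pass (limma adjusted p = 0.275). Without knockout replicate 1 the difference was -1.16 (0.108), and without knockout replicate 3 it was -0.41 (0.547). Averaged over both probe sets Tet2 differed by -0.94 ± 0.33 (0.157), and by -1.20 (0.116) without knockout replicate 1.

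Tet1, the TET enzyme best known from early germ cells, had 4 probe sets, of which 1 was tested. That one, 1455425_at, read 43.3, 27.5 and 19.4 in knockout and 36.5, 36.2 and 42.2 in wild type, so the knockout arrays spread over more than the whole wild-type range. It differed by -0.43 ± 0.27 (SE, n = 3 a group, adjusted p = 0.417 by limma), and by -0.73 (0.106) without knockout replicate 1. The 3 others read between 5.61 and 16.1 over all arrays, with 1 reading, on knockout replicate 1, above the tested level.

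Tet3, the TET enzyme of the egg, had 1 probe set, at 7.67, 6.93 and 9.01 in knockout and 8.11, 7.84 and 7.62 in wild type. All 6 readings were under the tested level. No difference could be measured for it.

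Knockout arrays varied more among themselves than wild-type arrays for 13 of the 15 tested probe sets, beside 68.3% of all tested probe sets. Knockout replicate 3 was the lowest knockout array for 9 of the 15, beside 35.4% of all. Replicate 1 was the highest and replicate 3 the lowest knockout array together for 7 of the 15, beside 15.6% of all. These 7 include the brightest probe sets of Uhrf1, Tet1 and Tet2 and the Dnmt3a probe set that fell. The summed level of the 8 tested germ cell markers was also highest on knockout replicate 1, at 18875 intensity units, against 14321 and 14233 for the other knockout arrays and 13066 to 15771 in wild type. Its part in the members' spread was not tested.

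Markers of other cell types were set beside the members, since in whole ovaries fewer cells of a type and less RNA per cell cannot be told apart. Their counts stand against 2.27% of all genes lower, 1.28% higher and 17.4% with an unadjusted p under 0.05. The 9 stroma markers summed to 33552 to 36180 in knockout against 38264 to 42722 in wild type, with 0 of 9 past the threshold by limma, 4 with an unadjusted p under 0.05 and a median difference of -0.25. The 6 tested endothelial markers summed to 1398 to 1678 against 2057 to 2361, with Flt1 and Tek lower, 2 of 6 (1 without knockout replicate 1, median -0.38), and Pecam1 and Cdh5 under the tested level. Of these 6, 4 had negative differences, while Tie1 (0.06) and Esam (0.002) did not. The 9 macrophage markers summed to 5919 to 9061 against 8078 to 10107, which overlap, with Ptprc and Mrc1 lower, 2 of 9 (median -0.33), and 0 of 9 by limma (3 with an unadjusted p under 0.05) without knockout replicate 1, whose sum was the lowest. Of 4 tested erythroid markers Slc4a1 was lower (median -0.33), and 0 passed by limma, with 2 at an unadjusted p under 0.05, without knockout replicate 1. The erythroid sums, 7120 to 8564 against 8255 to 8965, overlap, with 3 negative differences and 1 positive, Hbb-bh1 (0.39). The 5 tested mesonephros markers had positive differences (median 0.27), with 0 past the threshold by limma and 0 with an unadjusted p under 0.05. Pregranulosa markers summed to 17915 to 18828 against 16171 to 16780, with 0 of 9 past the threshold by limma, 2 with an unadjusted p under 0.05 and a median of 0.23. Of these 9, 7 had positive differences, while Foxl2 (-0.26) and Wnt4 (-0.08) had negative ones. Of the 8 tested germ cell markers 6 had positive and 2 negative differences (median 0.23), with 0 past the threshold by limma and 3 with an unadjusted p under 0.05. Without knockout replicate 1 those germ cell counts were 0 and 2, with a median of 0.13. The part of these levels in the Dnmt3a and Tet2 values was not tested.

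Partners of the members were read from 5 lists. Of 56 tested genes, 2 passed, both higher in knockout, which is 3.57% beside 3.55% of all genes. Dppa3, also called Stella, which protects maternal methylation in the egg and restrains Uhrf1, was 1 of 14 tested genes in the list of factors that guide or restrain de novo methylation. It read 1182, 197 and 76.8 in knockout and 12.2, 12.1 and 18.8 in wild type, apart, with the knockout arrays themselves far apart. Because 2 wild-type arrays were under the tested level, they were set at it for the fold, and Dppa3 was at least 15.49-fold higher (n = 3 a group). The limma fits of Dppa3 used the values before that step (adjusted p = 0.00817 with all arrays). Dppa3 met the filter through its knockout arrays, the group where it is high. Its p-values, and its place among the 2 that passed, are therefore given as description and not as support. The size rests on single knockout arrays: it was at least 7.29-fold without knockout replicate 1 and at least 28.6-fold without knockout replicate 3. The limma adjusted p-values of those fits were 0.00277 and 0.00234. The call ended with robust eBayes (0.0625) and without wild-type replicate 1 (0.0578).

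Bhmt, which remakes methionine from homocysteine with betaine as donor, was the 1 of 10 tested genes of methyl donor metabolism that passed. It read 58.6, 62.0 and 60.4 in knockout and 33.2, 31.3 and 27.2 in wild type, with little spread in either group. It rose 1.98-fold (0.98 ± 0.17, SE, n = 3 a group, adjusted p = 0.00651 by limma), and its limma adjusted p was 0.0190 when knockout replicate 1 was left out. The call ended without wild-type replicate 3 (0.0504). The 9 others of that list did not pass, and the list's median difference was 0.11.

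In the other 3 lists 0 genes passed through the brightest probe set by limma, and their counts with an unadjusted p under 0.05 stand beside 17.4% of all genes. Among 8 partners of maintenance methylation 3 had one: Hdac2, a histone deacetylase (0.40 ± 0.12, SE, n = 3 a group, adjusted p = 0.0843 by limma), and Hells (0.35, 0.116), both with positive differences, and Zbtb4 with a negative one (-0.47, 0.0892). Among 7 proteins that bind CpG sites 1 had an unadjusted p under 0.05, Mbd3, a subunit of the NuRD complex (0.83 ± 0.23, 0.0685, and 0.148 without knockout replicate 1). Among 17 partners of demethylation 3 had one, led by Neil1, a glycosylase of base excision repair (0.63 ± 0.21, 0.116). The list medians were 0.05 for maintenance, 0.08 for de novo, 0.06 for CpG binding and 0.06 for demethylation, against 0.02 over all genes and -0.12 for the 6 tested members. Averaged over probe sets the members had 3 negative and 3 positive differences (median -0.20), the positive ones being Uhrf1 at 0.31, Dnmt1 at 0.11 and Dnmt3b at 0.02. The medians of the maintenance, de novo and CpG binding lists changed sign in at least 1 other setting.

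**Figure D3:**
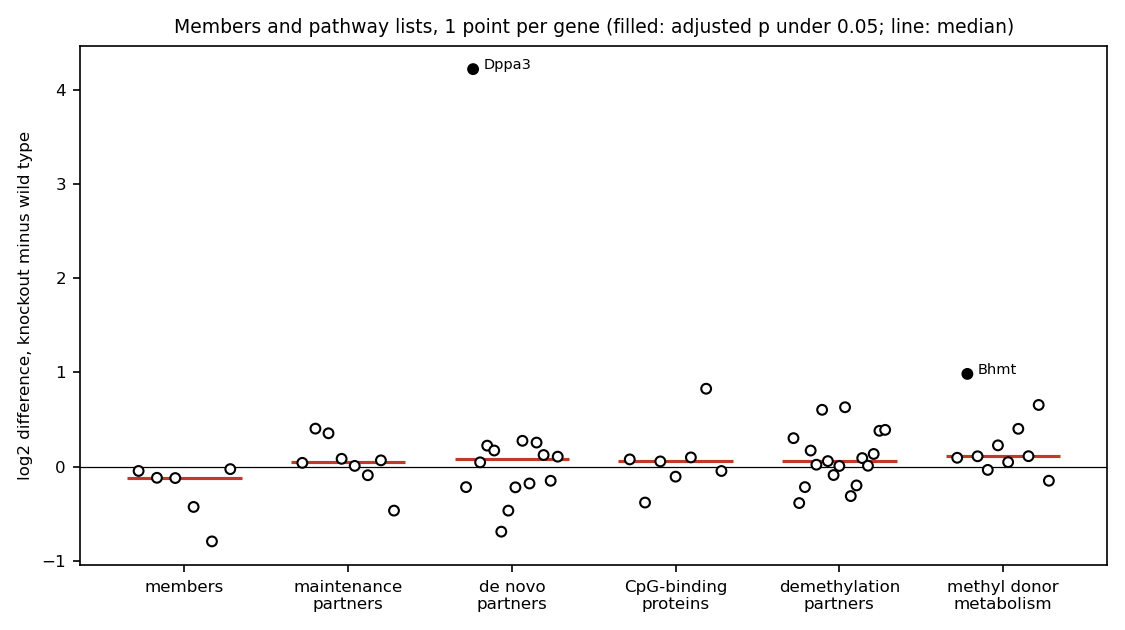
Log2 difference, knockout minus wild type, of each tested gene through its brightest probe set, for the members and 5 lists of partners. Lines are list medians and filled points passed the adjusted threshold, Dppa3 at a fitted 4.22, which uses wild-type values under the tested level, and Bhmt at 0.98. Through these probe sets the 6 members lie between -0.79 and -0.03, while 3 of the 6 are positive when probe sets are averaged.

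Uhrf1 and Dnmt1 act at the replication fork, so genes of dividing cells were read beside them. Of 11 tested, 1 rose, Mcm3 of the replicative helicase (0.56 ± 0.11 on the log2 scale, SE, n = 3 a group, adjusted p = 0.0151 by limma), and its call ended without knockout replicate 1 (0.0562). An unadjusted p under 0.05 was found for 5, with Mcm3, Mcm2, Plk1 and Mcm5 higher in value and Mki67 lower (-0.28), beside 1.28% of all genes called higher and 17.4% with such a p (list median 0.14). Their summed level ran from 22558 to 25403 in knockout against 21699 to 22814 in wild type, which overlap.

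The Tet2 probe set 1455300_at had the lowest p among the members' brightest probe sets, and the 3 genes most like it over the 6 arrays were Fgfr2 (Pearson r = 0.989), Traf3ip1 (0.989) and Tnks (0.983). This describes 6 arrays that share 2 groups, with no test. None of the 3 passed between the groups, with differences of -0.14, -0.41 and -0.15 (limma adjusted p = 0.487, 0.319 and 0.618).

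**Figure D4:**
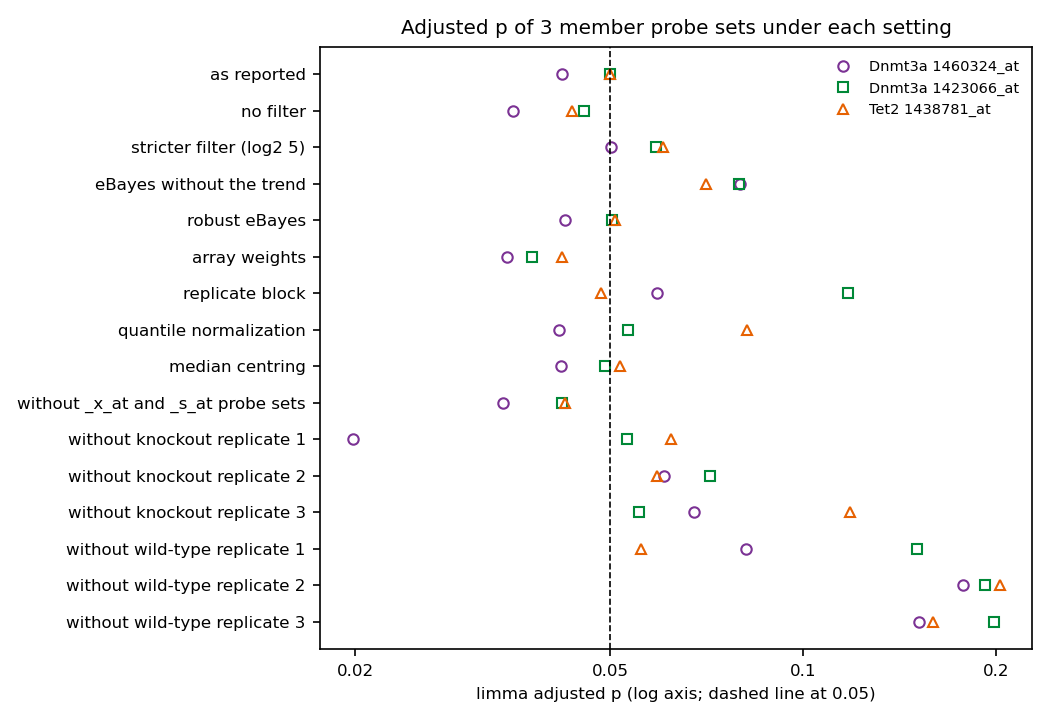
Limma adjusted p (horizontal log axis, dashed line at 0.05) of Dnmt3a 1460324_at, Dnmt3a 1423066_at and Tet2 1438781_at as reported and under 15 other settings. Points lie on both sides of the line for each of the 3, from 0.0198 to 0.203.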

How the data were processed

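Gene expression was measured on 6 arrays of E15.5 ovaries, 3 knockout and 3 wild type. The authors deposited an intensity per probe set, on a linear scale, made with GCRMA per the submitters' processing notes (version and settings not given). GCRMA adjusts background by base composition, normalizes and summarises probes, and presses dim values towards a floor. The values carry no detection calls. Precision is limited by the number of arrays. Knockout arrays had medians of 13.1 to 13.4 and wild-type arrays of 14.4 to 14.7.

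Intensities were taken to log2, 64 control probe sets were left out, and probe sets with log2 of at least 4 on at least 3 arrays were tested (22040). Symbols came from the platform annotation. The 2 groups entered limma 3.58.1 (R 4.3.3) with lmFit and a trended eBayes, 2-sided, with no covariate. A gene is read through its brightest tested probe set. The fit was tested on simulated data. Named genes are all members, the genes of each partner list past the threshold or else the 1 with the smallest p, Dmrt1, Xist, and the 3 genes most like 1 member; the proliferation genes, Hells and Zbtb4, and markers and genes in the closing section, lay outside that rule and were chosen after their values were seen. The members and lists were chosen with earlier results of these data known. Levels of different probe sets were not compared. Promoter windows of all 9 members matched by symbol. No pairs of arrays held identical values (0 found). Alternatives covered filters, eBayes forms, weights for arrays, a replicate block, scaling, probe set choice and leaving out each array.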

Additional observations from a re-analysis of the deposited data

How the results depend on the processing

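Read by gene, 0 members passed by limma under each of 17 other settings. These used the brightest probe set or the average of a gene's probe sets. The average that also left out knockout replicate 1 was chosen after seeing the data, as was that array's omission from the marker lists. With no filter Dnmt3l and Tet3 were read too, so 8 member genes were tested there and not 6. Of the members' probe sets, 3 passed with no filter, with array weights and without the _x_at and _s_at kinds, which can match more than 1 transcript, 2 with median centring, and 0 under the filter at log2 5 or with eBayes without the trend. With 1 array left out 0 to 1 passed, and it was 0 without any one of knockout replicates 2 and 3 and the 3 wild-type replicates. The sign of each Dnmt3a and Tet2 probe set was the same in every setting run. Beside the 1455 reported, the total over all probe sets was 3282 unfiltered and 956 under the stricter filter. It was 1763 under array weighting and 1464 once the _x_at and _s_at kinds were dropped. Median centring gave 1428, and eBayes lacking its trend gave 1371. Leaving out 1 array gave 536 to 1399 (541, 536 and 606 without wild-type replicates 1, 2 and 3). Array weights, median centring, the replicate block and eBayes without the trend were run on the same 22040 probe sets, 15 of them members'. Elsewhere the totals are counts and not shares, since the number tested changed with the filter, the kinds kept or the array left out. Of the partner genes 1 passed with robust eBayes and 2 to 4 with 1 array left out, all higher but 1 without knockout replicate 2. With averaged probe sets 4 of 56 passed, 2 higher and 2 lower, beside 2.87% of all genes. The lower ones were Uhrf2 (-0.73) and Polb (-0.72). The Polb average takes in a probe set that met the filter through its wild-type arrays alone. Where the filter or the number of arrays was not what changed, the cause was not tested. Same-numbered arrays of the groups did not deviate together (correlations -0.165, -0.247 and -0.168). No pairing by number was seen, though 3 arrays a group are too few to exclude one. With the replicate number as a block 1 member probe set and 1043 probe sets in all passed: Tet2 1438781_at passed (limma adjusted p = 0.0484) and Dnmt3a 1460324_at did not (0.0592).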

Other observations

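Probe sets of 1 gene also disagreed outside the members, in genes that work with them. Uhrf2, a relative of Uhrf1 that binds oxidised methylcytosine, spanned 324 to 348 in knockout against 321 to 347 at its brightest probe set, 1454920_at (log2 difference 0.01 ± 0.14, SE, n = 3 a group, adjusted p = 0.982 by limma). Its other probe set, 1447217_at, read 70.2, 107 and 97.4 in knockout and 255, 237 and 253 in wild type, and fell by 1.46 ± 0.19 (0.00134). Polb, the polymerase that fills the gap in base excision repair, spanned 850 to 898 in knockout against 826 to 906 at its brightest probe set, 1434230_at (0.01 ± 0.11, 0.973). Its probe set 1425371_at fell by 1.04 ± 0.17 (0.00553), and 1434229_a_at differed by -0.30 ± 0.15 (0.301). At 1439840_at all 3 knockout arrays were under the tested level, so it met the filter through its wild-type arrays alone. With the knockout arrays set at that level it was at least 2.09-fold lower, and for that reason its p-value is not used here. Over the whole array 5.15% of tested probe sets were lower in knockout by limma, beside 2.27% of genes read through the brightest probe set. The transcript forms that each probe set reads were not analysed here.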
